A study of Mus musculus with 12 samples.

Results

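Mice that conditionally lack the dopamine receptor gene Drd2 (labelled Drd2mGFAP cKO, called cKO here) were set against control mice without disease. The spinal cord of each genotype was sequenced in 3 libraries under this basal condition, so that 6 of the 12 libraries of the series entered the comparison, chosen by their labels. Strain and age were the same throughout, C57BL/6 at 2 to 3 months. The controls were littermates labelled wt, whose other alleles the labels do not name, and the cKO label carries the name of GFAP, the intermediate filament of astrocytes. The other 6 libraries came from the same genotypes at day 17 of experimental autoimmune encephalomyelitis (EAE), a mouse model of multiple sclerosis, and are used here only to see whether a basal difference was also present in libraries that did not enter it. Judged by counts of the Y chromosome, the EAE libraries also came from the other sex. The series title places astrocytic DRD2 in the inflammation of the central nervous system, and the basal comparison asks how the genotypes differed before any disease. The labels call the libraries biological replicates without saying that each came from 1 animal, so p-values measure only the spread between these samples.

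Drd2 encodes a dopamine receptor that couples to inhibitory G proteins and lowers cyclic AMP. It is best known from neurons, and astrocytes have been described to carry it as well. Astrocytes take up glutamate and potassium, supply neurons with metabolites, and change their gene expression in injury and inflammation. In RNA of a whole tissue, fewer cells of a type and less RNA per cell cannot be told apart, and a gene lost from 1 cell type can still be read from others.

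1 library stood apart. In cKO basal 2, 17220 genes had at least 1 count, against 24303 to 25801 in the other 5 basal libraries. Its total of 15128913 counts was close to theirs (15543999 to 17592105). Messages of ribosomal proteins took 6.76% of its counts and 0.903 to 1.59% of the others', while mitochondrially encoded messages took 1.19% and 4.10 to 5.06%. Of the genes tested, 51.8% lay over 2-fold from the control mean in cKO basal 2, against 0.228 to 4.44% in the other 5. Among 10573 genes with a mean of at least 10 CPM, the count scaled to the library size, 259 were more than 8-fold higher in that library than the control mean and 537 more than 8-fold lower. At the high end lay Rpl37a, a ribosomal protein gene, with 4900 CPM against 97.3 to 203 in the others, and Atp5e, a small subunit of ATP synthase, with 3588 against 57.6 to 105. At the low end, Mast1, a kinase gene with 57.8 to 132 CPM elsewhere, and Usp33, a deubiquitinase gene with 73.3 to 111 elsewhere, had 0 counts. The pattern followed transcript length. For protein-coding genes under 1 kb the median log2 difference from the control mean was 1.77 in cKO basal 2, and for those over 8 kb it was -0.66. Control basal 1 had a smaller slope of the same sign, from 0.53 to -0.29, while the other 4 libraries sloped the opposite way. Each control was set against the other controls only, so control basal 1 was part of the reference of these 4 libraries. Their slopes therefore cannot be read apart from that of control basal 1. Results are therefore given with all 6 libraries and without cKO basal 2, and a value under a single setting says which. The part of length in each gene's difference was not tested.

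**Figure D1:**
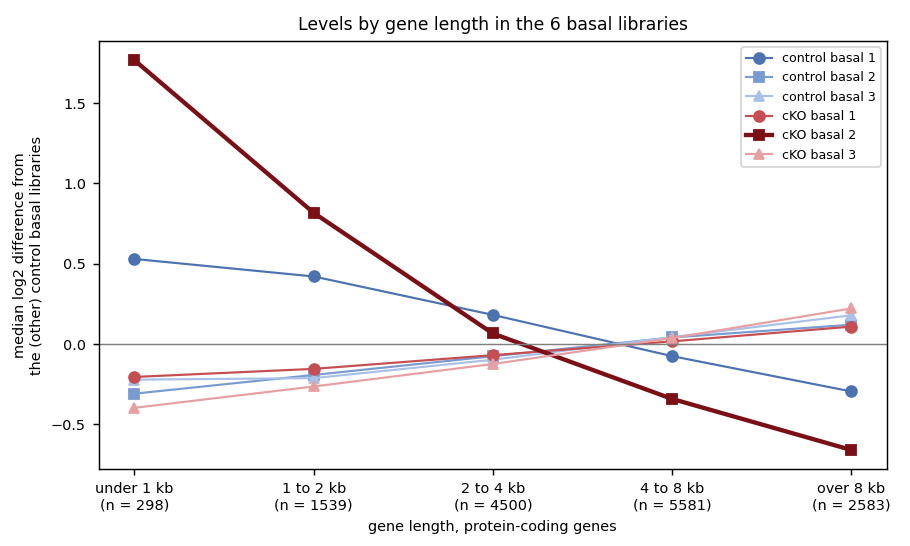
Median log2 difference of each basal library from the mean of the 3 control libraries, or for a control from the mean of the other controls (y axis). Protein-coding genes are grouped by transcript length (x axis). The line of cKO basal 2 runs from 1.77 for genes under 1 kb to -0.66 for genes over 8 kb, and that of control basal 1 from 0.53 to -0.29.

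The quasi-likelihood test of edgeR, adjusted by Benjamini-Hochberg with a threshold of 0.05, passed no gene, either in 17133 genes tested with 6 libraries (0%) or in 17549 without cKO basal 2 (0%). At an unadjusted p below 0.05 there were 31 genes (0.181%) with 6 libraries, 24 higher in cKO (0.14%) and 7 lower (0.0409%), and 388 (2.21%) without cKO basal 2, 161 of them higher in cKO (0.917%) and 227 lower (1.29%). The latter count moved with 1 more library left out, to 892 without control basal 1, 835 without cKO basal 1 and 125 without cKO basal 3, so the share of 2.21% holds for these 5 libraries only. The Wald test of DESeq2 passed 1 gene with 6 libraries, Gm22615, which had 67 counts in cKO basal 2 and 0 in the other 5. Without cKO basal 2 it passed 2 genes, Htr3a among them. The biological coefficient of variation was 51.6% over the 6 libraries and 18.2% over the 5. The median difference over all genes was -0.02 (log2) with 6 libraries, and the median size of a difference was 0.29, or 0.17 without cKO basal 2. In the 6 EAE libraries 1374 of 17914 genes passed (7.67%), a count that depended on single libraries: it was 0 without any 1 of control EAE 1, 2 and 3 or cKO EAE 1, 3418 without cKO EAE 2 and 3336 without cKO EAE 3.

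Drd2 itself (ENSMUSG00000032259, chromosome 9, 49340627 to 49408177, build mm10) was not lower in cKO cord. Its levels, in CPM after TMM normalisation as for all levels here, were 25.6, 18.8 and 19.3 in control basal 1 to 3 and 17.1, 33.1 and 33.7 in cKO basal 1 to 3. The groups overlapped, with both the lowest and the highest value in cKO. The log2 difference was 0.40 ± 0.34 (SE) with 6 libraries and 0.26 ± 0.28 without cKO basal 2, and without cKO basal 3 in addition it turned to -0.30. The count is of the whole gene and cannot show whether an exon was removed in part of the cells.

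Genes close to Drd2 on chromosome 9 were among those that separated the genotypes. Of 15 genes named by rank of p among those whose groups did not overlap, 4 lay within 5 Mb of Drd2, and all 4 were lower in cKO. That window was chosen after values were seen. It held 99 of the 17133 genes tested with 6 libraries and 102 of the 17549 tested without cKO basal 2. The 4 genes were Htr3a (chromosome 9, 48899213 to 48911099), Nxpe4 (48162023 to 48400025), Pts (50521617 to 50528724) and Dixdc1 (50662752 to 50739517). Cryab (50751325 to 50756636) was named in any case and lies 1.34 Mb from Drd2.

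Htr3a encodes a subunit of the ion channel that serotonin opens. It had 6.14, 3.54 and 5.24 CPM in the control libraries and 1.13, 0.811 and 1.33 in the cKO libraries. Every cKO library was below every control, cKO basal 2 included. The log2 difference was -2.17 ± 0.41 (unadjusted p = 0.00163) with 6 libraries and -2.004 ± 0.34 (unadjusted p = 0.00035) without cKO basal 2. The adjusted p was 0.997 and 0.954 by edgeR's quasi-likelihood test. Without cKO basal 2 it was 0.0158 in the same test with no filter on low counts and 0.0488 by DESeq2's Wald test. With the replicate number as a block in edgeR's test it was 0.000443, but the replicate numbers were not taken to pair the samples. The other alternatives left it above 0.05.

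Pts encodes 6-pyruvoyltetrahydropterin synthase, which makes a precursor of tetrahydrobiopterin, the cofactor with which tyrosine hydroxylase and tryptophan hydroxylase make dopamine and serotonin. It had 27.65, 16.02 and 22.4 CPM in the control libraries and 11.1, 10.99 and 10.8 in the cKO libraries. The 3 cKO values lay close together and below all controls. The log2 difference was -1.01 ± 0.28 with 6 libraries and -1.004 ± 0.24 without cKO basal 2 (unadjusted p = 0.00303). The promoter of Pts is shown because Pts is the gene near Drd2 with a known link to dopamine and with a start site close to that of the deposited table. The RefSeq window (GRCm38.p6, chr9:50528607-50528906, minus strand) runs from 250 bases before to 50 after the start, which lies 68 bases from the end of the gene in the table. It is written from 5′ to 3′, with a GC box in capitals.
Pts promoter: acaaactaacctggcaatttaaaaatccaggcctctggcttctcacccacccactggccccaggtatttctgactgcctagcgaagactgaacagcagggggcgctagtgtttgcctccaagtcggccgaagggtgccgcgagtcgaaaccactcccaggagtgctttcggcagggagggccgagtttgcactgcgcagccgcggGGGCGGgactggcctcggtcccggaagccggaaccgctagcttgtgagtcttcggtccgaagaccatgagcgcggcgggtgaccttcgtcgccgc
The GC box GGGCGG, searched on both strands, occurred once, and 35.7% of 32851 promoters of the same length held it. TATAAA (13.6% of promoters), CCAAT (37.4%) and TGACGTCA, the cyclic AMP response element (1.79%), were not in this window. These matches describe the letters only.

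Nxpe4 had 17.0, 13.1 and 14.6 CPM in control and 9.98, 10.3 and 7.47 in cKO, again without overlap (log2 difference -0.69 ± 0.26, and -0.77 ± 0.21 without cKO basal 2). Dixdc1, which encodes a protein with the DIX domain of Wnt signalling, had 117, 103 and 141 CPM in control and 76.3, 85.7 and 84.6 in cKO. Its groups did not overlap, and the log2 difference was -0.55 ± 0.22, or -0.58 ± 0.17 without cKO basal 2. Cryab encodes alpha B-crystallin, a small heat shock protein of astrocytes and oligodendrocytes. It had 327, 154 and 179 CPM in control and 117, 285 and 98.3 in cKO. Only cKO basal 2 lay among the controls, and the groups overlapped. The log2 difference was -0.40 ± 0.52 with 6 libraries and -1.03 ± 0.32 (unadjusted p = 0.0113) without cKO basal 2, and with 6 libraries it was 0.01 without control basal 1, the highest control.

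Gm40518, a long noncoding RNA gene next to Nxpe4 (chromosome 9, 48132504 to 48158965), was chosen after its values were seen. It had 28, 9 and 36 counts in the control basal libraries and 0 in all 3 cKO basal libraries. Over the group the level was at least 22.9-fold lower in cKO, taking 3 counts in all 3 cKO libraries together as the floor, which covers counting error only. In the EAE libraries it had 5, 19 and 9 counts in control and 0 in all 3 cKO libraries, so that it had 106 counts in the 6 control libraries and none in the 6 cKO libraries. Without strand information its counts cannot be told apart from those of any transcript that overlaps it.

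**Figure D2:**
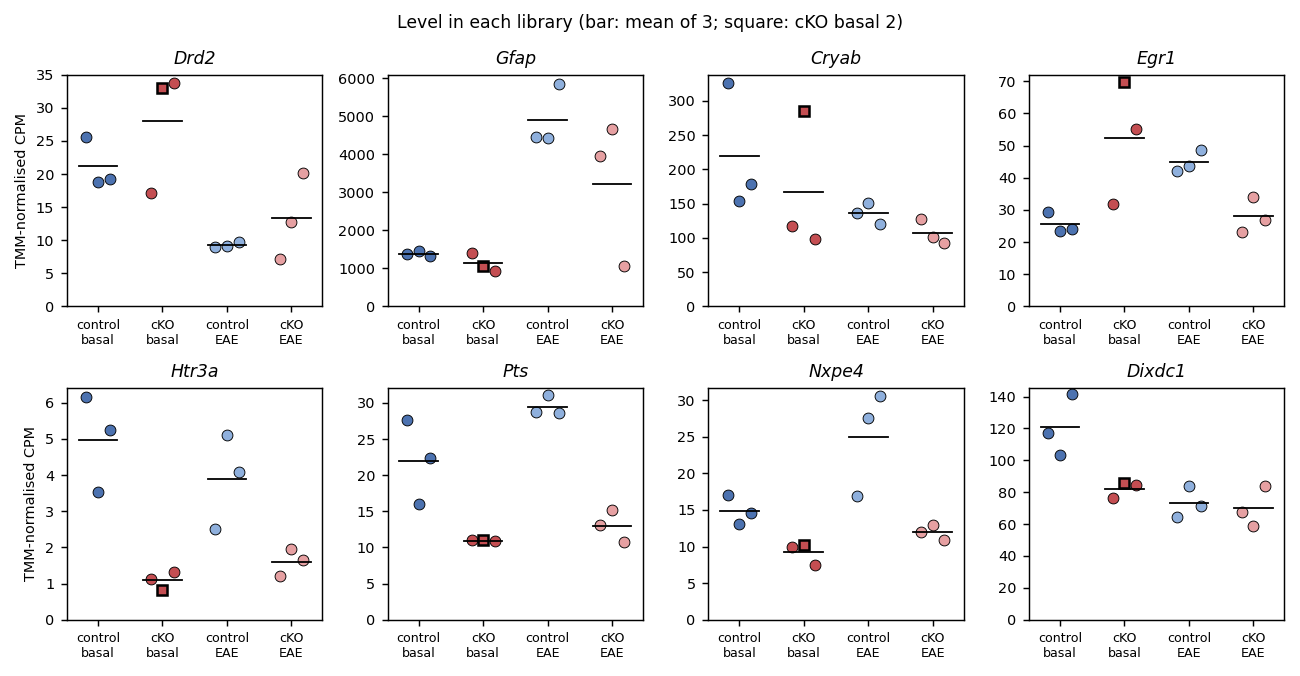
TMM-normalised level in CPM (y axis, linear from 0) of 8 genes in control and cKO libraries at basal and at EAE (x axis), with 1 point per library, a bar for the mean of 3 and a square for cKO basal 2. Htr3a, Pts and Nxpe4 have all cKO points below all control points in both states and Dixdc1 at basal only, while Drd2 and Gfap overlap in both.

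The same genes were then read in the EAE libraries, which the basal comparison did not use and which came from the other sex. Counts of 4 genes of the Y chromosome summed to 0 or 1 in each basal library and to 2739 to 3258 in each EAE library. At EAE Pts had 28.7, 31.1 and 28.6 CPM in control and 13.1, 15.2 and 10.8 in cKO, a log2 difference of -1.18 ± 0.15 (adjusted p = 0.0440 by edgeR's quasi-likelihood test). No library overlapped. Basal and EAE levels were scaled separately, so the levels themselves are not compared between states. Nxpe4 had 16.9, 27.5 and 30.5 against 11.98, 12.96 and 10.9 CPM, -1.06 ± 0.23 (adjusted p = 0.0476 by the same edgeR test). Htr3a had 2.51, 5.11 and 4.08 against 1.22, 1.97 and 1.64 CPM, -1.27 ± 0.34 (adjusted p = 0.0594 by the same edgeR test). All 3 genes were thus below every control in both states. Dixdc1 was not: it had 64.3, 84.2 and 71.2 CPM in control EAE and 67.6, 59.0 and 83.9 in cKO EAE, with overlap. Cryab had 137, 151 and 120 against 128, 101 and 92.5 CPM, also with overlap (-0.35 ± 0.15). The EAE calls of Pts and Nxpe4 were lost when any 1 of control EAE 1, 2 and 3 or cKO EAE 1 was left out, since no gene passed then.

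The neighbourhood was then counted in a window of 5 Mb on either side of Drd2 that was chosen after values were seen. These counts include the named genes. Without cKO basal 2, 14 of 102 genes tested there (13.7%) had an unadjusted p below 0.05, 10 of them lower in cKO and 4 higher, against 13 of 895 (1.45%) on the rest of chromosome 9 and 2.21% of all genes. Htr3a, Pts, Nxpe4, Dixdc1, Cryab and Gm40518 were among these 14. With 6 libraries 5 of 99 had an unadjusted p below 0.05, against 0.181% of all genes. They were Htr3a, Pts, Nxpe4, Dixdc1 and 2900052N01Rik. The groups did not overlap for 13 of 99 genes (13.1%) with 6 libraries, against 5.83% of all genes (2.13% with cKO higher and 3.7% with cKO lower), and for 33 of 102 (32.4%) without cKO basal 2, against 20.7%. Of the 13 genes without overlap at basal with 6 libraries that were tested in both states, 9 (69.2%) were separated in the same direction at EAE, where the groups of 48% of all genes did not overlap (23.4% with cKO higher and 24.5% with cKO lower). Elsewhere in the genome this held for 211 of 960 (21.98%). The contrast was smaller without cKO basal 2, 11 of 31 genes (35.5%) near Drd2 and 813 of 3494 (23.3%) elsewhere. With the 6 basal libraries but without cKO EAE 3, whose Gfap level of 1067 CPM lay far below the 3959 to 5854 of the other EAE libraries, it was 10 of 13 and 223 of 960. The difference went both ways near Drd2. Sik3, a kinase gene (chromosome 9, 46012820 to 46224194), had 202, 244 and 234 CPM in control and 278, 303 and 283 in cKO, and at EAE 211, 219 and 218 against 280, 265 and 287. Dlat, which encodes the acetyltransferase subunit of pyruvate dehydrogenase, had 128, 125 and 122.5 CPM in control and 146, 162 and 130 in cKO, and at EAE 77.75, 77.4 and 65.3 against 140, 103 and 140. Both were above every control in both states, and both were chosen after their values were seen. 2900052N01Rik, a gene of the same region (46913493 to 46927366) chosen in the same way, had 9.34, 11.4 and 10.6 CPM in control and 11.96, 19.1 and 20.3 in cKO. At EAE it stood much further apart, with 1.64, 0.962 and 1.30 against 13.9, 7.37 and 23.4 CPM (log2 difference 3.51 ± 0.48).

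**Figure D3:**
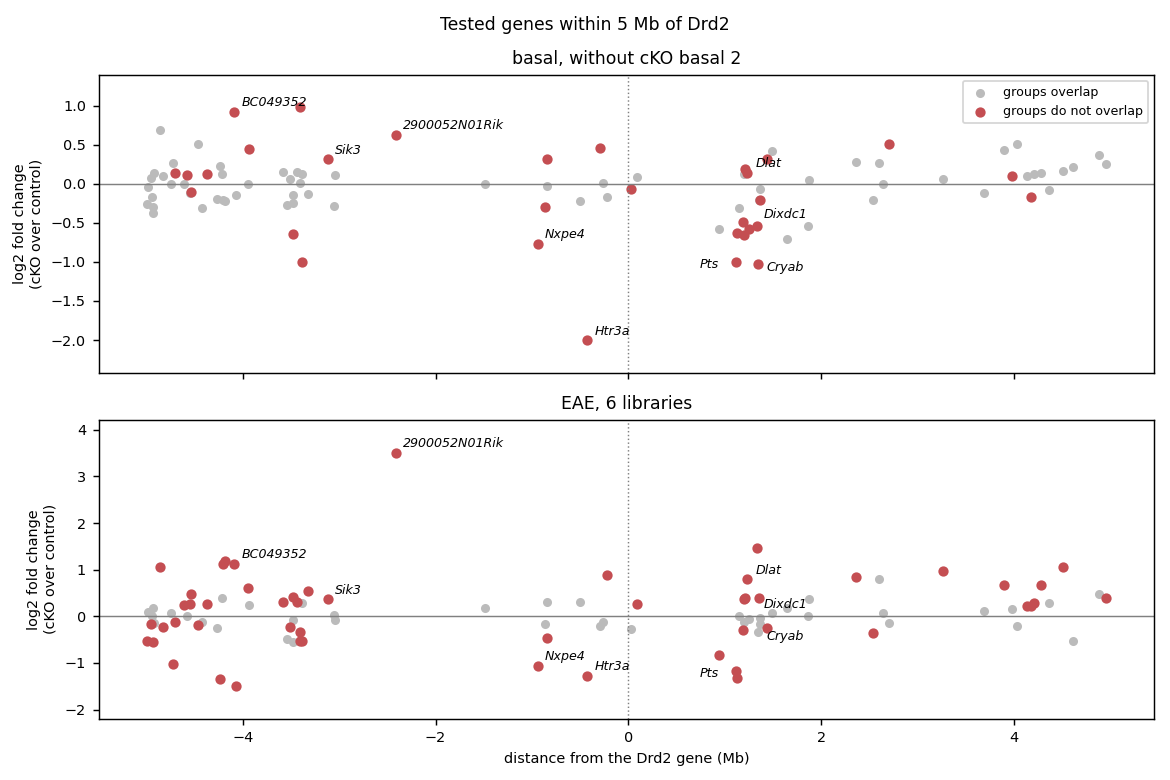
Log2 difference between cKO and control (y axis) of genes within 5 Mb of Drd2, by distance from Drd2 in Mb (x axis). Shown are the genes tested both at basal without cKO basal 2 and at EAE, in red where the groups do not overlap. Htr3a, Pts and Nxpe4 lie below 0 in both states and Sik3, Dlat and 2900052N01Rik above 0. Genes not tested at EAE, Gm40518 among them, are left out.

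Outside that neighbourhood the named genes were not separated again at EAE in the same way. Of 11 such genes, 2 had the same sign at EAE as at basal without cKO basal 2, and 1, Snrpf, was separated in the same direction. Tomm7, described below, had a log2 difference of 0.009 at EAE, a sign it had at basal only with 6 libraries. Snrpf, which encodes a core protein of the spliceosome, had 6.33, 6.80 and 4.86 CPM in control, 3.16, 0 and 2.375 in cKO, and at EAE 5.49, 5.29 and 5.27 against 3.95, 3.87 and 4.05. Over all 351 genes beyond 5 Mb with a basal unadjusted p below 0.05 (without cKO basal 2), 173 (49.3%) had the same sign at EAE, against 50.4% of all genes tested in both states.

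Egr1, an immediate early transcription factor induced by neuronal activity, had the opposite order at basal and at EAE. At basal it had 29.2, 23.3 and 24.2 CPM in control and 31.8, 69.8 and 55.1 in cKO (log2 difference 1.03 ± 0.34, and 0.77 ± 0.24 without cKO basal 2). At EAE it had 42.2, 43.6 and 48.6 CPM in control and 23.3, 34.1 and 26.8 in cKO. The groups did not overlap in either state. Basal and EAE libraries also differ in sex, so disease and sex cannot be told apart in any difference between the states. The test of the difference between states gave an unadjusted p of 0.000953 and an adjusted p of 0.547 by edgeR's quasi-likelihood test, and none of 18601 genes passed it, with 1697 at an unadjusted p below 0.05. None of 19055 passed without cKO basal 2, with 3671 at an unadjusted p below 0.05, and the adjusted p of Egr1 was 0.129 by the same edgeR test. Zfp973, a zinc finger gene at low level, had 0.184, 0.375 and 0.486 CPM in control and 1.35, 2.34 and 1.39 in cKO at basal. At EAE it had 1.81, 1.02 and 1.54 against 0.243, 0.798 and 0.822 CPM, again in the opposite order. Nox4, a NADPH oxidase gene, had 0.922, 0.696 and 0.594 CPM in control, 1.52 and 2.49 in cKO basal 1 and 3, and 0 in cKO basal 2. Lbp, which encodes the lipopolysaccharide-binding protein, had 0.922, 1.07 and 0.540 CPM in control and 1.58, 2.34 and 2.26 in cKO. Its log2 difference was 1.28 ± 0.47 with 6 libraries. Eps8l1, of the EPS8 family of actin regulators, had 5.16, 3.05 and 8.42 CPM in control and 9.645, 20.5 and 15.7 in cKO. Zfp296, another zinc finger gene, had 0.553, 0.214 and 0.378 CPM in control and 1.02, 3.15 and 0.869 in cKO. Tomm7, a small subunit of the mitochondrial import pore, differed in sign with and without cKO basal 2. It had 26.1, 18.2 and 26.7 CPM in control, 14.6 and 10.95 in cKO basal 1 and 3, and 288 in cKO basal 2, so that its log2 difference was 2.14 with that library and -0.89 without it. Mettl4, a methyltransferase gene, had 3.38, 4.29 and 4.27 CPM in control, 6.37 and 7.07 in cKO basal 1 and 3, and 2.25 in cKO basal 2. Fam160a1 and the pseudogene Apoo-ps complete the named genes, with log2 differences without cKO basal 2 of 1.78 and -1.44.

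Gene lists were then described by the counts of their members, beside the same counts over all genes. No member of any list passed the adjusted threshold with 6 libraries or without cKO basal 2. When control basal 3 was left out as well, the globin genes Hba-a1 and Hbb-bs passed. Counts are given without cKO basal 2 unless stated, where the groups did not overlap for 9.8% of all genes with cKO higher and 10.9% with cKO lower. Of all genes tested, 49.8% were higher in cKO without cKO basal 2 and 47.9% with 6 libraries.

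Gfap, the gene named in the cKO label, had 1373, 1459 and 1335 CPM in control and 1401, 1069 and 929.8 in cKO. The groups overlapped, with cKO basal 3 lowest (log2 difference -0.29 ± 0.26, and -0.25 ± 0.20 without cKO basal 2). Of 18 astrocyte markers 6 were higher in cKO and 12 lower, with 2 separated upward and 5 downward and a median of -0.15. With 6 libraries 4 of the 18 were higher, none was separated upward and 3 downward, and the median was -0.16. Agt, the angiotensinogen gene, had 293, 264 and 253 CPM in control and 212 and 204 in cKO basal 1 and 3 (log2 difference -0.37 ± 0.15), but 1061 in cKO basal 2. S100b, a calcium-binding protein, had 731, 480 and 493 CPM in control, 479 and 326 in cKO basal 1 and 3, and 3004 in cKO basal 2. Among 11 pan-reactive genes 4 were higher, with 2 separated upward, 1 downward and a median of -0.14, and with 6 libraries 6 were higher, with a median of 0.22. S1pr3, a receptor for sphingosine phosphate, had 5.10, 4.66 and 5.56 CPM in control and 6.15, 12.6 and 6.20 in cKO, and Osmr, the oncostatin M receptor, had 4.49, 3.75 and 4.97 against 5.81, 5.85 and 5.50. Both were above every control in all 3 cKO libraries. Aspg, of the same list, went the other way, with 3.93, 4.45 and 3.94 CPM in control and 3.38, 2.52 and 2.84 in cKO, all below the controls.

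Of 11 tested genes of dopamine signalling, 5 were higher and 6 lower, with a median of -0.04, none at an unadjusted p below 0.05 and 3 separated downward. With 6 libraries 6 were higher, 2 were separated downward and the median was 0.06. Ppp1r1b encodes DARPP-32, a phosphatase inhibitor that dopamine receptors control. It had 57.9, 63.6 and 56.6 CPM in control and 52.4, 30.35 and 36.9 in cKO, with every cKO library below every control. Rgs5, a regulator of G protein signalling typical of pericytes, had 109, 99.7 and 92.8 CPM in control and 105, 22.8 and 106 in cKO. Only cKO basal 2 was outside the controls, and the log2 difference was -0.37 with it and 0.07 ± 0.14 without it.

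The medians of inflammatory lists lay on either side of 0, some close to it, and several changed sign when cKO basal 2 was included. The median was 0.05 for 17 interferon gamma response genes (0.02 with 6 libraries), -0.05 for 19 type I interferon response genes (-0.11) and -0.03 for 16 NF-kB response genes (0.19). Of 4 inflammatory cytokines tested none was higher, with a median of -0.32 (0.42 for the 3 tested with 6 libraries). Of 13 genes of activated microglia and macrophages 3 were higher, with a median of -0.28 (0.26 with 6 libraries). MHC class II genes, which present antigen to T cells, were higher in 5 of 7, with a median of 0.32 (0.01 with 6 libraries), and MHC class I genes in 4 of 15, with a median of -0.11 (0.37). The medians were -0.21 for 6 neutrophil genes (1.49 with 6 libraries), 0.03 for 6 monocyte genes (-0.15) and 0.12 for 3 chemokine genes (-0.01). Of 16 T cell genes 4 were high enough to be tested, with a median of -0.30 (-0.24 with 6 libraries), and the whole list summed to 6.96 to 7.51 CPM in control and 6.09, 8.29 and 7.12 in cKO. Irgm2, a GTPase induced by interferon, was the member with the smallest p of its list, with 2.95, 4.02 and 3.51 CPM in control, 5.75 and 4.92 in cKO basal 1 and 3, and 0 in cKO basal 2. Of 13 complement genes 4 were higher in either setting, with a median of -0.12 (-0.08 with 6 libraries), and the only members at an unadjusted p below 0.05 were the 3 genes of C1q, the first component of the classical pathway, which microglia make. C1qb had 38.4, 33.3 and 27.5 CPM in control and 26.6, 21.6 and 21.7 in cKO, with all 3 cKO libraries below the controls (log2 difference -0.50 with 6 libraries, and -0.45 ± 0.19 without cKO basal 2). C1qc had 30.8, 22.8 and 22.1 CPM in control, 19.1 and 14.7 in cKO basal 1 and 3, and 50.4 in cKO basal 2. C1qa had 31.3, 29.3 and 25.1 CPM in control, 24.1 and 15.6 in cKO basal 1 and 3, and 194 in cKO basal 2. Of 12 homeostatic microglia genes 3 were higher, with a median of -0.11, and with 6 libraries 2 were higher, with a median of -0.22.

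All 15 myelin genes were lower in cKO basal 1 and 3 than in control, with a median of -0.26, 7 separated and 1 at an unadjusted p below 0.05. With cKO basal 2, 8 of the 15 were higher and the median was 0.06. Cldn11, a tight junction protein of myelin, had 458, 471 and 457 CPM in control and 374, 292 and 332 in cKO, below every control in all 3 libraries (log2 difference -0.47 with 6 libraries, and -0.39 ± 0.15 without cKO basal 2). Mbp, the myelin basic protein gene, had 11461, 11932 and 12084 CPM in control and 10644, 5978 and 7519.8 in cKO, also without overlap. Mog, another myelin protein gene, had 243, 219 and 220 CPM in control, 201 and 166 in cKO basal 1 and 3, and 541 in cKO basal 2. Summed over the list, cKO basal 1 was at 23061 CPM, cKO basal 3 at 17639 and cKO basal 2 at 63996, beside 24117 to 25544 in control, so the size of the difference rested on cKO basal 3. Nuclear genes of the respiratory chain were lower in 20 of 20 without cKO basal 2 (median -0.41, 6 separated) and higher in 18 of 20 with it (median 1.13). The median over all protein-coding genes under 1 kb moved likewise, -0.34 without that library and 0.75 with it. Genes of this length had a median log2 difference of 0.53 in control basal 1 from the other controls. In cKO basal 1 and 3 it was -0.20 and -0.40 from the control mean, which includes control basal 1. Summed over the respiratory chain list, control was at 4340 to 6212 CPM. The sum was 4393 CPM in cKO basal 1, within the controls, 3831 in cKO basal 3 and 22634 in cKO basal 2.

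Neuronal markers were higher in 8 of 16 and lower in 8, with a median of -0.03 (7 higher and -0.10 with 6 libraries). All 12 motor neuron genes were lower, but their median was -0.05, none was separated, and the low values were those of cKO basal 3. With 6 libraries 1 of the 12 was higher, 1 was separated and the median was -0.36. Slc18a3, the vesicular acetylcholine transporter, had 67.7, 72.2 and 56.0 CPM in control, 79.8 in cKO basal 1, 19.98 in cKO basal 3 and 11.98 in cKO basal 2. Mnx1, a transcription factor of motor neurons, had 3.13, 4.23 and 2.48 CPM in control, 4.12 in cKO basal 1, 0.579 in cKO basal 3 and 0.540 in cKO basal 2. Both differences turned positive without cKO basal 3 and cKO basal 2. Of 19 immediate early genes 14 were higher, 4 separated upward and 3 downward, with a median of 0.12, and 1, Egr1, at an unadjusted p below 0.05. With 6 libraries 15 were higher, 3 separated upward and none downward, with a median of 0.29.

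Markers of other cells in the tissue moved with single libraries. Erythrocyte genes had a median of -1.89 without cKO basal 2 and 1.92 with it. Hbb-bs, a beta globin gene, had 33.0, 48.4 and 4.05 CPM in control and 7.84, 311 and 5.27 in cKO, so control basal 3 lay with cKO basal 1 and 3, and the groups overlapped. Hba-a1, an alpha globin gene with a near-identical copy, had 27.1, 34.1 and 4.48 CPM in control and 6.54, 423 and 5.27 in cKO. Of 12 ependymal genes 8 were higher, 3 separated, with a median of 0.25, and with 6 libraries 6 were higher, none separated, with a median of -0.04. The endothelial, pericyte, fibroblast and Schwann cell lists had medians of 0.05, -0.03, -0.02 and -0.06, and with 6 libraries of -0.09, -0.07, -0.14 and -0.11. Their part in the other results was not tested.

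**Figure D4:**
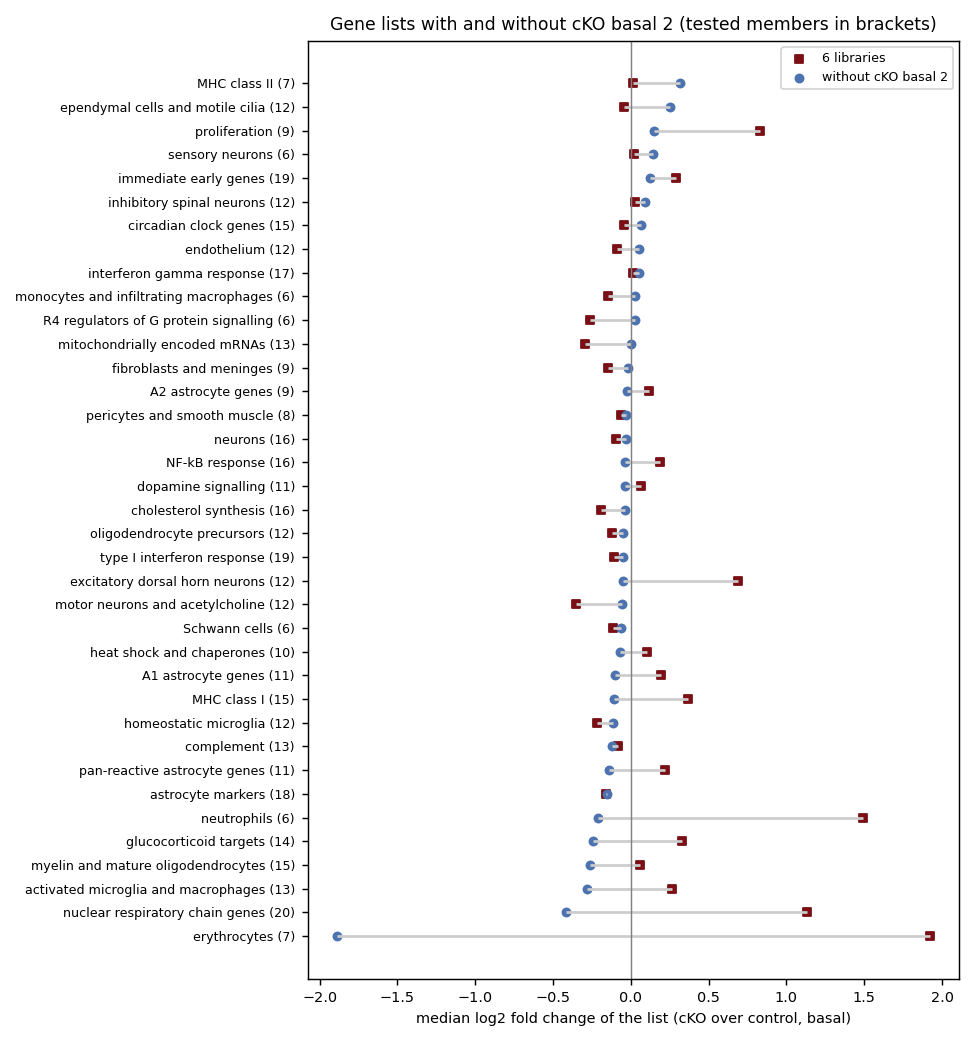
Median log2 difference between cKO and control of each gene list with at least 6 tested members at basal (x axis; y axis, the lists with their number of tested members), with all 6 libraries and without cKO basal 2. The medians of nuclear respiratory chain genes (1.13 and -0.41) and erythrocytes (1.92 and -1.89) change sign between the 2 settings, while interferon gamma response genes stay near 0 (0.02 and 0.05).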

How the data were processed

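The authors deposited 1 table of unnormalised counts for 54532 genes. The submitters' processing notes name HISAT2 2.0.5, featureCounts 1.5.0-p3 and build mm10. The strand setting and the handling of reads with several matches are not given in the sources used here, so overlapping, antisense and near-identical genes are uncertain. Counts were tested with edgeR 4.0.16 (limma 3.58.1, R 4.3.3): TMM factors, its filter on low counts, the quasi-likelihood test with genotype as the only term, and Benjamini-Hochberg adjustment with a threshold of 0.05. The SE is the size of the log2 difference divided by the square root of F. DESeq2 1.42.0 was an alternative. Levels are CPM scaled within the 6 basal or the 6 EAE libraries. The script was tested on simulated data. The transcript lengths are those of the deposited table.

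Members, 45 gene lists and rules were chosen with earlier results of these data known. Named were Drd2, Gfap, Rgs5 and Cryab, then, with 6 and with 5 libraries, the 5 smallest p per direction among genes with at least 1 CPM in a group and no overlap, leaving out predicted genes, and up to 4 members of a list by p. No 2 libraries of a group agreed within counting noise (the smallest chi-square per degree of freedom was 3.45). Promoter sequence came from RefSeq (GRCm38.p6). Results for some genes are not reported here.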

Additional observations from a re-analysis of the deposited data

How the results depend on the processing

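With 6 basal libraries no alternative other than DESeq2's Wald test (1 gene) passed any gene, and leaving out each library in turn gave 0 to 0. Without cKO basal 2 the count was 5 with no filter on low counts, 2 with DESeq2's Wald test, and 0 to 2 when each library was left out: without control basal 3, Hba-a1 (-2.37) and Hbb-bs (-2.63) passed. Deviations of same-numbered libraries correlated at -0.52, -0.45 and 0.45 with 6 libraries. The outlying cKO basal 2 and control basal 1 correlated at 0.56 and weigh on all of these values, which therefore cannot decide on pairing. The replicate numbers were not taken to pair the samples. Without cKO basal 2 the pairs numbered 1 and 3 correlated at 0.105 and 0.112, where both cKO libraries have equal and opposite deviations. With a replicate block, 27 genes passed without cKO basal 2 (10 higher, 17 lower). Among them were Htr3a (-2.20), Pts (-1.18), Cryab (-1.17), Tomm7 (-1.06) and, named after its value was seen, the list member mt-Co3 (-2.45). That fit had few residual degrees of freedom, and control basal 2 had no cKO partner in it. At EAE the block passed 0 of 17914 genes by edgeR (5344 at an unadjusted p below 0.05), and leaving out each library gave 0 to 3418. The EAE calls of Pts and Nxpe4 were thus lost under the block and without control EAE 1, 2 or 3 or cKO EAE 1. Of the named genes, signs turned with 6 libraries for Rgs5 (0.10 with voom weights, and -0.66 to 0.068 over the left-out libraries, positive without cKO basal 2), Tomm7 (-0.74 with voom weights, and -0.89 to 2.66, negative without cKO basal 2) and Cryab (-1.03 to 0.0080, positive without control basal 1). Without cKO basal 2 they turned when cKO basal 3 was also left out for Drd2 (-0.30 to 0.67), Gfap (-0.58 to 0.023), Slc18a3 (-1.71 to 0.30), Mnx1 (-2.49 to 0.33) and Gad2 (-0.016 to 0.40), and without cKO basal 1 for Kdr (-0.027 to 0.80). With 1 cKO library left, its spread was assumed to be that of the controls. The other values of named genes, 261 with 6 libraries and 853 with 5, kept their sign and side of the threshold, and 10 with 5 libraries newly passed it. At 15128913 to 17592105 counts a library, genes under 1 CPM rest on few counts.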

Other observations

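In cKO basal 3, 3 genes had far more counts than in the other basal libraries, and were chosen after their values were seen. Alb, the serum albumin gene made by liver, had 147 counts there and 0 in the other 5. Ttr, the transthyretin gene made by choroid plexus and liver, had 1139 counts and 5 to 111 in the others. Entpd4b had 209 counts and 0 to 23 in the others.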
